A study of Bos taurus with 8 samples.

Results

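The 10 genes described here encode transcription factors that set the state of stratified epithelium: TP63, SOX2, KLF4, KLF5, GRHL1, GRHL2, GRHL3, OVOL1, ELF3 and EHF. They were chosen by name among 14962 gene names on a bovine expression array with 15008 probes. Each gene had 1 probe under its name, and the same probe was found through its transcript accession for 10 of 10. The probes of 8 genes were well above background on all 8 arrays, the ELF3 probe on 7 and the OVOL1 probe on 3. Of the 10236 probes that were bright enough to be tested, 9 belonged to these genes, and OVOL1 was the gene left out.

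The study measured RNA of rumen epithelium, the stratified lining of the first stomach chamber, from Holstein bulls that were rumen-fistulated, weighed 215.2 ± 20.4 kg and were aged 7.4 ± 0.3 months. In a cross-over of 5 bulls with no wash-out, each diet was given for 14 days: a high-grain diet with corn flakes (control), or that diet with some of its corn flakes exchanged for wood kraft pulp, a fibre made mainly of cellulose (WP). Arrays of 4 animals, calves 21, 23, 24 and 25, were analysed here, 1 per diet, 8 in all. All animals were on a high-grain ration, so no array shows the epithelium on forage alone, and which diet a given calf received first is not stated in the sources used here.

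A stratified epithelium renews itself from a basal layer of dividing cells, whose daughters stop dividing, move upward and cornify. TP63, SOX2 and KLF5 are known for activity in basal and progenitor cells of such epithelia, mostly from work in mouse and human. KLF4, GRHL1, GRHL3, OVOL1, ELF3 and EHF are known for roles in the suprabasal, differentiating layers, and GRHL2 is expressed in every layer.

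A level below is log2 of the background-corrected signal minus log2 of the 75th percentile of its array, so a probe as bright as that percentile has a level of 0. Levels are compared between arrays for 1 probe and never between probes. A diet difference is WP minus control within a calf on the log2 scale, its SD is taken over 4 calves, and its SE and p come from a limma fit across all tested probes with calf as a block. The 75th percentile signal was 199 to 282 on the 4 arrays of row 1 of the slide and 234 to 322 on the 4 of row 2, and the probes called well above background numbered 9314 to 11990 per array. The WP array of calf 24 had the highest negative-control signal, with a median of 4.06 against 1.20 to 1.90 on the others.

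The tissue label was checked against epithelial markers. Of 16 markers, 15 had a probe and 14 of these were well above background on all 8 arrays, among them KRT5, KRT14 and CDH1, while KRT4 passed on 1 array. The summed marker signal, in units of the array's 75th percentile, was 373 to 431 on control and 325 to 443 on WP. In whole tissue, fewer cells of a type and less RNA per cell cannot be told apart, and this holds for every value below.

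Between the diets, the basal factors TP63, SOX2 and KLF5 and the pan-epithelial GRHL2 had positive mean differences, between 0.12 and 0.36 log2. The suprabasal GRHL1, GRHL3, KLF4, ELF3 and EHF had negative ones, between -0.52 and -0.14, while the dim suprabasal OVOL1 had a positive one of 0.46, so that 5 of the 10 means were positive and 5 negative. None passed the test: 0 of 9 tested members had an adjusted limma p under 0.05, where 0% of all tested probes did, and 0 of 9 had an unadjusted p under 0.05, where 6.99% of all did. Over all tested probes 64.4% of differences were positive, with a median of 0.09, and under quantile scaling 47.5% were positive with a median of -0.02. The signs of the 9 members' means were the same under quantile and cyclic loess scaling.

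TP63 encodes p63, a relative of p53 that maintains the basal layer. Its probe lies on chromosome 1, 78013501 to 78013560, minus strand (build UMD 3.1). On control and WP, respectively, its level was -0.91 and 0.05 in calf 21, -0.49 and -0.18 in calf 23, -0.51 and -0.48 in calf 24, and -0.14 and -0.16 in calf 25. Calf 21 had both the lowest control level and the highest WP level, and the diets overlapped. The mean difference was 0.32 ± 0.45 (SD, n = 4), with an SE of 0.20 and an adjusted limma p of 0.667. Without calf 21 it was 0.11. Before scaling, the TP63 signal was between 172 and 210 on all 8 arrays.

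SOX2 encodes a progenitor factor of the foregut, known from mouse oesophagus and forestomach (chromosome 1, 85933327 to 85933386, minus strand). Its control and WP levels were 5.05 and 5.56 in calf 21, 5.34 and 5.53 in calf 23, 4.97 and 5.21 in calf 24, and 5.46 and 5.53 in calf 25. The WP level was the higher one in 4 of 4 calves, by 0.07 to 0.52, although the diets overlapped. The mean difference was 0.25 ± 0.19 (SD, n = 4), a ratio of 1.19, with an SE of 0.13 and an adjusted limma p of 0.658, and it was 0.16 without calf 21. The direction in calves 21 and 23 came with the scaling: the unscaled signal was 10652 on control and 9414 on WP in calf 21, and 11673 and 9311 in calf 23. In calves 24 and 25 the unscaled signal was higher on WP, at 10532 against 8838 and 10784 against 9271.

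KLF5, a Krüppel-like zinc finger factor of proliferating epithelial cells, varied least of the 10 genes, over a range of 0.41 log2 (chromosome 12, 48107053 to 48107112, plus strand). The control and WP levels were -0.64 and -0.51 in calf 21, -0.61 and -0.78 in calf 23, -0.83 and -0.50 in calf 24, and -0.62 and -0.42 in calf 25. Calf 23 was lower on WP and the other 3 calves were higher. WP minus control averaged 0.12 ± 0.21 (SD, n = 4), with an adjusted limma p of 0.769, and was 0.05 without calf 24 and 0.22 without calf 23.

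GRHL2 belongs to the grainyhead-like family, which activates genes of cell junctions and the barrier. Its probe was placed by the array design across 13060 bases of chromosome 14, 65004671 to 65017730, minus strand, so that its 60 bases do not lie in 1 stretch of the genome. The control and WP levels were -1.13 and -0.33 in calf 21, -0.58 and -0.41 in calf 23, -0.76 and -0.39 in calf 24, and -0.48 and -0.40 in calf 25. Every WP array stood above every control array, and the 4 WP arrays were nearly level (SD 0.03) while the control arrays were spread (SD 0.28). This separation came with the scaling. The unscaled signals in calves 21, 23, 24 and 25 were 147, 192, 167 and 152 on control. On WP they were 158, 152, 218 and 178, so the diets overlapped and calf 23 was lower on WP. By scaled level, GRHL2 was the 1 member of 10 whose diets did not overlap, which held for 3.67% of all tested probes with WP above and 1.19% with WP below. The mean difference was 0.36 ± 0.32 (SD, n = 4), a ratio of 1.28, with an SE of 0.16, an unadjusted limma p of 0.0763 and an adjusted one of 0.658. Without calf 21 it was 0.21.

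SOX2 and GRHL2 were the 2 members with a higher WP level in 4 of 4 calves, a pattern shared by 12% of all tested probes. No member was lower on WP in 4 of 4 calves, against 5.41% of all tested probes.

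**Figure D1:**
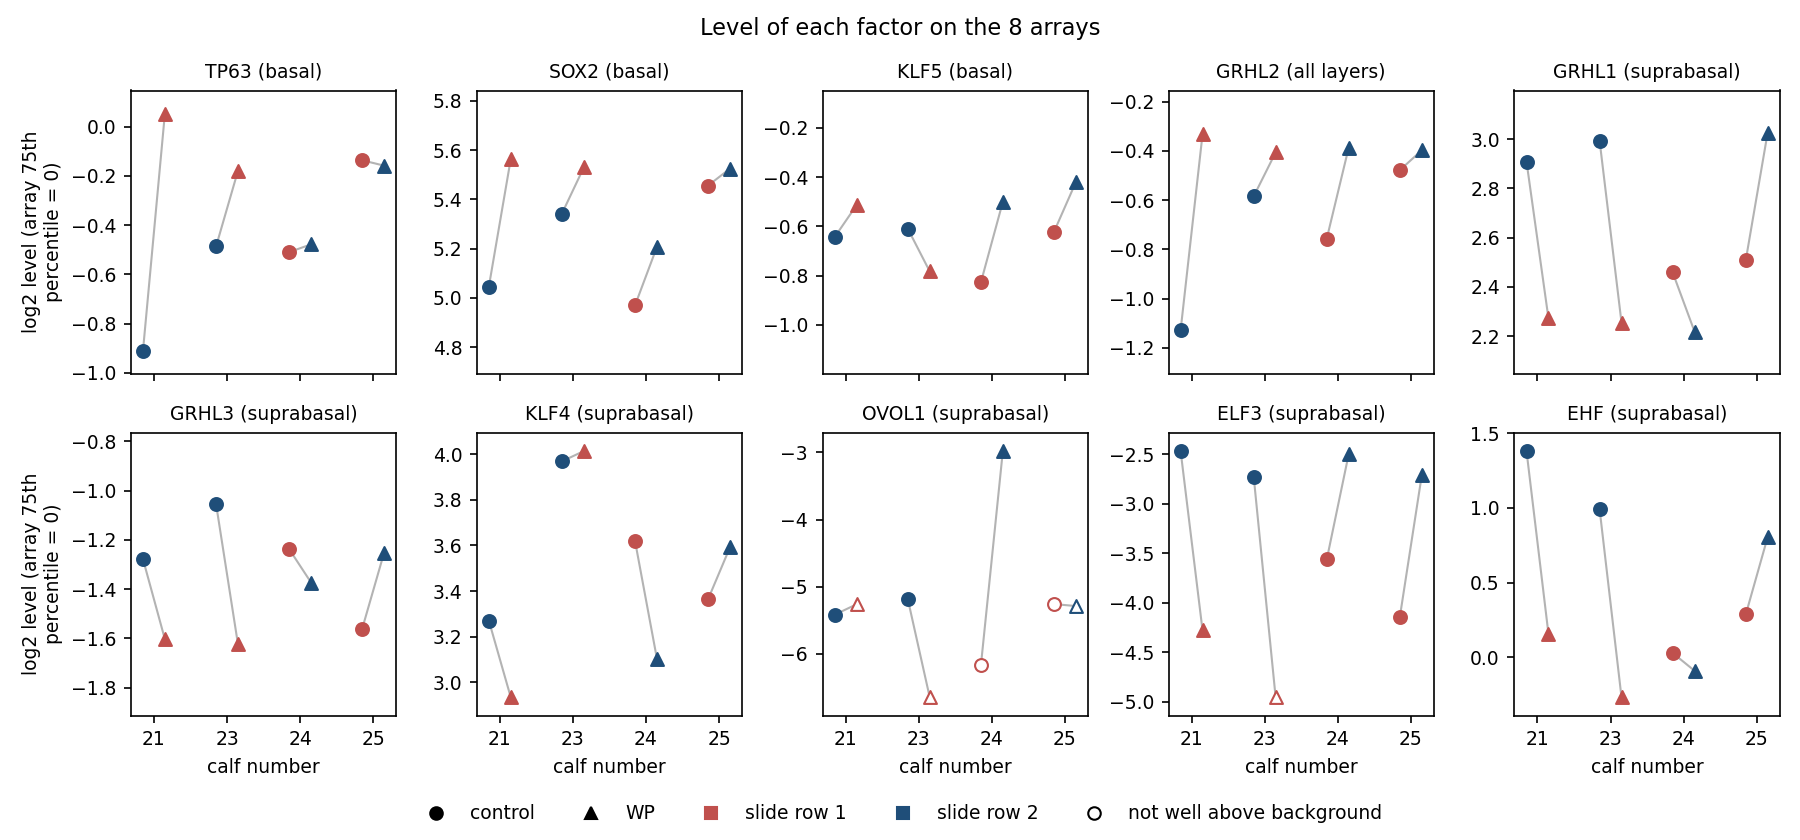
Level of each of the 10 factors on the 8 arrays (log2 signal relative to the array's 75th percentile), with a line joining the control and WP arrays of a calf; colours mark the slide row, each panel has its own scale, and open points are arrays where the probe was not well above background. In GRHL2 the 4 WP points stand above the 4 control points, while the ELF3 lines run down in calves 21 and 23 and up in calves 24 and 25.

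The other grainyhead-like factors had negative means. GRHL1, known in mouse for regulating desmosomal cadherins in the suprabasal layers (chromosome 11, 87565842 to 87565901, minus strand), had control and WP levels of 2.91 and 2.27 in calf 21, 2.99 and 2.25 in calf 23, 2.46 and 2.22 in calf 24, and 2.51 and 3.03 in calf 25. The level was lower on WP in 3 calves and higher in calf 25, whose WP array was the highest of all 8. On average the difference was -0.27 ± 0.57 (SD, n = 4), with an SE of 0.24 and an adjusted limma p of 0.723. It was -0.12 without calf 23 and -0.54 without calf 25 (adjusted limma p 0.546).

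GRHL3, needed for the epidermal barrier in mouse (chromosome 2, 129160821 to 129160880, minus strand), had control and WP levels of -1.28 and -1.60 in calf 21, -1.06 and -1.62 in calf 23, -1.24 and -1.37 in calf 24, and -1.56 and -1.25 in calf 25. It too was lower on WP in calves 21, 23 and 24 and higher in calf 25. It averaged -0.18 ± 0.37 (SD, n = 4), with an adjusted limma p of 0.742, and was -0.05 without calf 23 and -0.34 without calf 25.

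The probes of the family members were compared as sequences because near-identical genes can share hybridisation. In the best ungapped alignment the GRHL2 and GRHL3 probes matched at 21 of 51 overlapping bases, with no run of identical bases longer than 5, and the GRHL1 and GRHL3 probes matched at 19 of 60. Both printed probes read 5′ to 3′ and carry no capitals, since no base is singled out in them.
GRHL2: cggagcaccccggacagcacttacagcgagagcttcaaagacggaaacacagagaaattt
GRHL3: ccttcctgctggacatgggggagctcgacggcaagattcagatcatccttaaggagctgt

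KLF4, a Krüppel-like factor that promotes terminal differentiation of epidermis in mouse, had no common direction (chromosome 8, 98843872 to 98843931, minus strand). The control and WP levels were 3.27 and 2.93 in calf 21, 3.97 and 4.01 in calf 23, 3.62 and 3.10 in calf 24, and 3.36 and 3.59 in calf 25. It was lower on WP in 2 calves and higher in the other 2, and both arrays of calf 23 stood above the other 6. The mean difference was -0.14 ± 0.34 (SD, n = 4), with an adjusted limma p of 0.780. Leaving out calf 24 gave -0.02, and leaving out calf 25 gave -0.27.

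OVOL1, a zinc finger repressor that in mouse epidermis helps cells leave the cycle, was dim (chromosome 29, 44584023 to 44584082, plus strand). It was well above background on the control arrays of calves 21 and 23 and on the WP array of calf 24, and on no other. Its control and WP levels were -5.42 and -5.26 in calf 21, -5.19 and -6.65 in calf 23, -6.17 and -2.98 in calf 24, and -5.26 and -5.29 in calf 25. The WP array of calf 24 stood apart at a signal of 36.1, against 2.01 to 7.90 on the others, and it was the array with the highest negative-control signal. The mean difference of 0.46 ± 1.96 (SD, n = 4) was not tested, and it was -0.44 without calf 24 and -0.23 under quantile scaling.

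ELF3 and EHF are ETS-family factors of epithelia that bind DNA through a related ETS domain. Their probes were the most alike of all member pairs, with 28 of 40 overlapping bases identical in the best ungapped alignment and a longest identical run of 8 bases. The probes are printed to show how much sequence they share, with the bases identical in that alignment in capitals, 5′ to 3′.
ELF3: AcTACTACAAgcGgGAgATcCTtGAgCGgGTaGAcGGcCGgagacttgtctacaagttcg
EHF: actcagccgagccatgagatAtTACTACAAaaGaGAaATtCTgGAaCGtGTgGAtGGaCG

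The ELF3 probe lies on chromosome 16, 70830109 to 70830168, plus strand. Its control and WP levels were -2.47 and -4.28 in calf 21, -2.73 and -4.96 in calf 23, -3.56 and -2.50 in calf 24, and -4.14 and -2.71 in calf 25, and the WP array of calf 23 was the one not well above background. WP was lower in calves 21 and 23, by 1.81 and 2.23, and higher in calves 24 and 25, by 1.06 and 1.43. The mean difference of -0.39 ± 1.90 (SD, n = 4) was small beside that spread, with an SE of 0.73 and an adjusted limma p of 0.869. It was 0.09 without calf 21, 0.23 without calf 23, -0.87 without calf 24, -0.99 without calf 25 and 0.06 under normexp background correction.

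EHF lies on chromosome 15, where its probe was placed at 66030744 to 66030906, plus strand, over 163 bases. The control and WP levels were 1.38 and 0.16 in calf 21, 0.99 and -0.27 in calf 23, 0.03 and -0.09 in calf 24, and 0.29 and 0.81 in calf 25. The level was lower on WP by 1.22 and 1.26 in calves 21 and 23, nearly equal in calf 24 and higher in calf 25. Its mean difference of -0.52 ± 0.87 (SD, n = 4), a signal 1.43 times as high on control, was the most negative of the members, with an SE of 0.35, an unadjusted limma p of 0.193 and an adjusted one of 0.673. It was -0.29 without calf 21, -0.27 without calf 23 and -0.87 without calf 25.

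**Figure D2:**
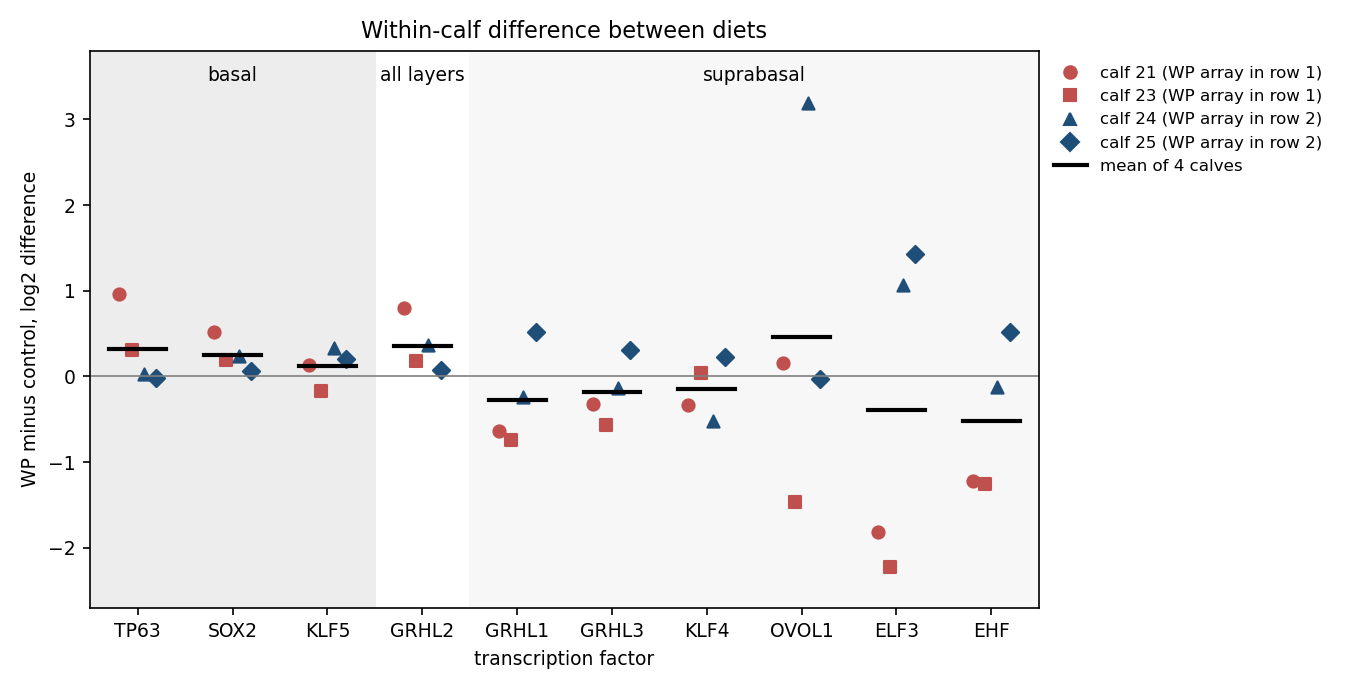
Within-calf difference, WP minus control (log2), of each factor in the 4 calves (points), with the mean (bar) and colours for the slide row of the WP array, ordered by layer. The basal factors and GRHL2 lie mostly above 0, and the points of ELF3 and OVOL1 spread over more than 3 log2 units.

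Basal and suprabasal factors were then set against each other within each calf. The mean difference of the 3 basal factors was 0.54, 0.11, 0.20 and 0.08 in calves 21, 23, 24 and 25. That of the 6 suprabasal factors was -0.70, -1.03, 0.54 and 0.50. The suprabasal mean was thus negative in calves 21 and 23 and positive in calves 24 and 25, while the basal mean was positive in each. Basal minus suprabasal was 1.23, 1.14, -0.34 and -0.41, or 0.41 ± 0.90 (SD, n = 4), a value no larger than its spread. Over the members well above background on all 8 arrays, which leaves out OVOL1 and ELF3, it was 1.17, 0.74, 0.45 and -0.31, or 0.51 ± 0.62 (SD, n = 4). With only OVOL1 left out, the score was 1.40, 1.06, 0.19 and -0.52, or 0.53 ± 0.87 (SD, n = 4). Calf 25 had the opposite sign to calves 21 and 23 in each version. Calf 24 was negative only with OVOL1 in the score, and the OVOL1 difference in that calf was 3.19. No test was made of this score.

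Over all 6 suprabasal factors, the sign of the mean differed between the same pairs of calves as the layout of the slide. Over the 4 that were well above background on all 8 arrays it did not. Their mean was -0.63, -0.63, -0.25 and 0.39 in calves 21, 23, 24 and 25. With only OVOL1 left out, the mean of the other 5 was -0.87, -0.95, 0.01 and 0.60, so it was near 0 in calf 24. All 8 arrays lay on 1 slide in 2 rows, with the WP arrays of calves 21 and 23 and the control arrays of calves 24 and 25 in row 1, and their partners in row 2. Each calf had 1 array in each row, so row could be compared within calves, and each row held 2 arrays of each diet. Whether a row also stands for a feeding period or a processing group is not stated in the sources used here. The comparison was chosen after seeing the data.

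ELF3 was higher in row 2 in 4 of 4 calves, by 1.81, 2.23, 1.06 and 1.43 in calves 21, 23, 24 and 25. The 4 arrays of row 2 lay between -2.73 and -2.47 and those of row 1 between -4.96 and -3.56, so the rows did not overlap, whichever diet was fed. The mean row difference was 1.63 ± 0.50 (SD, n = 4). Its SE was 0.14 in the limma fit with calf, row and diet, and 0.22 in the fit without diet. The probe was well above background on 4 arrays of row 2 and on 3 of row 1. The row 1 array of calf 23 was the dim one. Without that calf, the fit with calf, row and diet gave 1.53, an estimate adjusted for diet and not the plain mean of the other calves. In the same fit with calf 23 kept, the unadjusted limma p of ELF3 was 0.000278 and the adjusted p 0.255, which misses the threshold. A row difference at least as high was found for 28 of 10236 tested probes, 0.274%. Its size depends on the background correction at these low signals: under normexp it was 0.37, with an adjusted limma p of 0.117.

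EHF was higher in row 2 in calves 21, 23 and 25, by 0.72 ± 0.66 on average (SD, n = 4), with an unadjusted limma p of 0.00826 and an adjusted one of 0.299. Calf 24 was the exception, at -0.12. The row difference was 0.41 for GRHL1 (adjusted limma p 0.413), 0.27 for GRHL3 (0.468) and 0.00 for KLF4 (0.999). TP63 gave -0.32, SOX2 -0.10, GRHL2 -0.13 and KLF5 0.14.

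Counted over the members, 0 of 9 passed the adjusted threshold for row, where 0% of all tested probes did. At an unadjusted p under 0.05 there were 2 of 9, ELF3 and EHF, both higher in row 2, where 12.9% of all tested probes passed and 7.3% passed as higher. The rows did not overlap for 1 member, ELF3, against 3.57% of all tested probes with row 2 above and 3.35% with row 2 below. It was also the 1 member higher in row 2 in 4 of 4 calves, against 10.5%.

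With row as a second block beside calf, the diet difference of ELF3 kept its value of -0.39 and had an unadjusted limma p of 0.0485, and that of EHF an unadjusted p of 0.0247. The adjusted p was 0.488 for both. In that fit 9.94% of all tested probes had an unadjusted p under 0.05, and 3.41% were lower on WP. Without row, the unadjusted limma p was 0.618 for ELF3 and 0.193 for EHF. The SE was 0.73 without row and 0.14 with it for ELF3, and 0.35 and 0.15 for EHF. Row was compared for these members after seeing the data, so the smaller p with row is given as description only. Within row 1 and row 2, the unpaired diet differences were -0.77 and -0.01 for ELF3 and -0.21 and -0.83 for EHF. They were 0.26 and 0.38 for TP63, 0.33 and 0.17 for SOX2, 0.25 and 0.46 for GRHL2, and 0.08 and 0.17 for KLF5. GRHL1 gave -0.22 and -0.33, GRHL3 -0.21 and -0.15, and KLF4 -0.02 and -0.27. The sign of these 9 members was thus the same in both rows. Within a row the WP and control arrays came from different calves, so diet and calf cannot be told apart there. For ELF3 in row 2 (SE 0.23) and KLF4 in row 1 (SE 0.39) the value was too near 0 for its sign to be told.

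**Figure D3:**
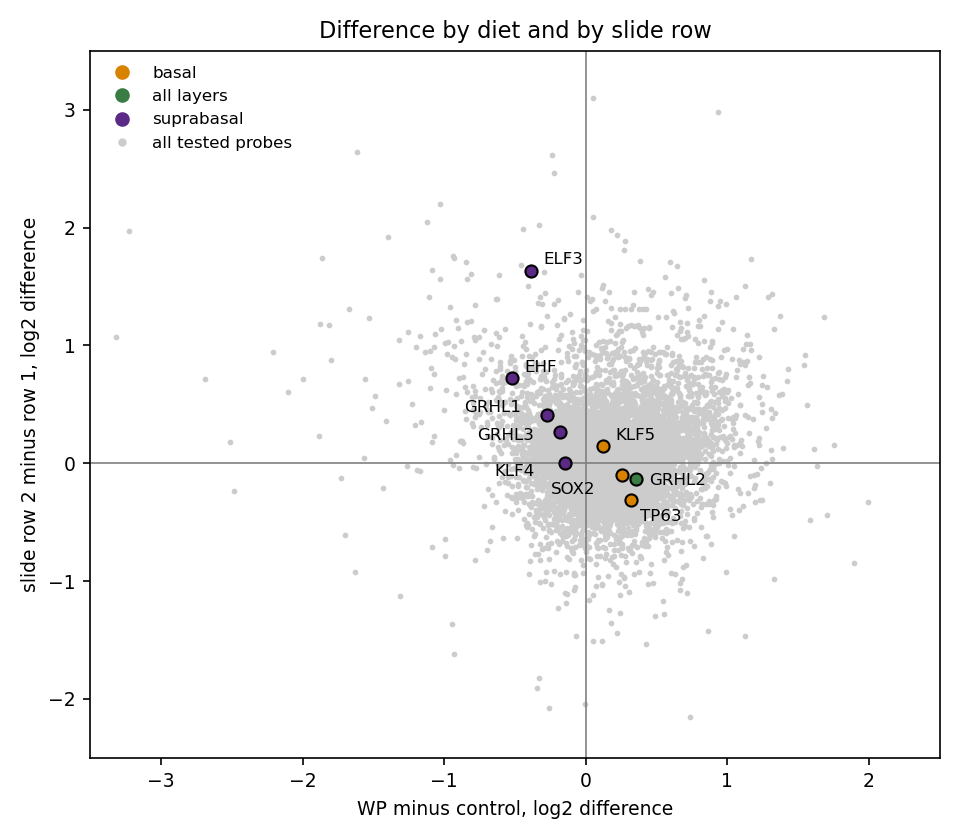
Mean difference by diet (x axis, WP minus control, log2) against mean difference by slide row (y axis, row 2 minus row 1, log2) for all tested probes (grey) and the 9 tested factors (coloured by layer). ELF3 sits high at a row difference of 1.63, and EHF, GRHL1 and GRHL3 lie left of 0 and above it.

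The summed signal of the 17 leukocyte markers on the array, in units of the 75th percentile, was 6.30 to 7.44 in row 1 and 7.47 to 13.9 in row 2, without overlap, while on control and WP it was 7.25 to 13.9 and 6.30 to 10.3. Of these markers 8 were well above background on all 8 arrays, and MS4A1 and ITGAM on none. The epithelial sum was 388 to 443 in row 1 and 325 to 397 in row 2. The part of leukocytes, of array position and of array brightness in the row difference of ELF3 and EHF was not tested.

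For comparison by diet, the summed signal of 13 fibroblast markers was 12.1 to 42.4 on control and 20.7 to 46.8 on WP. For 13 endothelial markers it was 4.64 to 8.64 and 6.49 to 11.2, with CDH5 above background on no array, and for 9 smooth muscle markers it was 19.1 to 27.7 and 25.3 to 31.6. The 10 melanocyte and neural markers, of which 6 were above background on no array, summed to 0.967 to 1.76 and 1.20 to 1.26. Of the tested markers, 11 of 12 fibroblast, 12 of 12 endothelial and 7 of 7 smooth muscle genes had a positive diet difference. Their medians were 0.59, 0.40 and 0.38, where all tested probes had 64.4% positive and a median of 0.09. In calf 21 the fibroblast and endothelial medians were -0.42 and -0.34. Of the epithelial markers 5 were positive and 9 negative, of the leukocyte markers 5 and 7, and of the melanocyte and neural markers 1 and 2. No marker list had a gene with an adjusted limma p under 0.05, and the part of these cells in the members' diet differences was not tested.

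The factors act together with other regulators, which were examined as lists. Of 49 other epithelial regulators, 37 were tested, and 28 had a positive and 9 a negative diet difference, with a median of 0.10, close to the 0.09 of all tested probes. Under quantile scaling these counts were 20 and 17, and without calf 21 they were 18 and 19. None had an adjusted limma p under 0.05, and 2 of 37 had an unadjusted one, both higher, beside 5.24% of all tested probes. These were SOX4, a progenitor factor, at 0.36 ± 0.19, and the aryl hydrocarbon receptor AHR at 0.37 ± 0.21 (SD, n = 4 for both), with AHR at -0.31 under quantile scaling. ELF5, another ETS-family factor of epithelia, gave -1.90, -1.50, -0.42 and 0.38 in calves 21, 23, 24 and 25, lower on WP in the same 3 calves as EHF. Its mean was -0.86 ± 1.04 (SD, n = 4; -0.51 without calf 21), with an adjusted limma p of 0.658, and its row difference was 0.84 with an unadjusted limma p of 0.0106 and an adjusted one of 0.307.

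A further list of 21 held AP-1, C/EBP and MAF factors, which act in differentiating keratinocytes, and some CNC-family and basic helix-loop-helix factors. Of these 15 were tested, and 10 had a positive and 5 a negative difference, with a median of 0.10. None passed the adjusted or the unadjusted threshold. The genes of smallest p were MAF at 0.61 ± 0.65, FOSL1 at -0.87 ± 1.37 and JUN at 0.35 ± 0.53 (SD, n = 4 for each). Each rested in part on 1 calf: MAF was 0.28 without calf 24, FOSL1 -0.35 without calf 21 and JUN 0.13 without calf 23, and FOSL1 was -0.24 under normexp. Of 18 further Krüppel-like and SP factors 11 were tested, 7 positive and 4 negative, with a median of 0.09 that became -0.05 under quantile scaling, where 4 were positive and 7 negative. None passed either threshold. SP1 gave 0.63 ± 0.998, SP6 0.93 ± 1.61 and KLF14 0.30 ± 0.46 (SD, n = 4 for each), all with SDs above their means. Without calf 24 they were 0.17, 0.26 and 0.15.

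Notch signalling, in which a ligand on a neighbouring cell releases an intracellular fragment that acts with RBPJ and MAML proteins, helps commit basal cells to differentiate. Of 30 Notch genes 22 were tested, 21 with a positive and 1 with a negative difference, and the median was 0.22 against 0.09 for all tested probes. Under quantile scaling 18 were positive and 4 negative, with a median of 0.16 against -0.02. Per calf the median was 0.55, 0.35, 0.28 and -0.05 in calves 21, 23, 24 and 25. No Notch gene had an adjusted limma p under 0.05, and 2 of 22 had an unadjusted one, both higher, beside 5.24% of all tested probes. These were NUMB, an inhibitor of Notch, at 0.81 ± 0.56, and the co-activator MAML3 at 0.61 ± 0.46 (SD, n = 4), which was 0.08 under quantile scaling, and both were higher on WP in 4 of 4 calves. The ligand gene JAG1 gave 0.82 ± 0.87 (SD, n = 4). Under normexp NUMB was 0.45 and JAG1 0.38.

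The layers in which the factors act were described by their structural genes. Of 27 basal layer genes 25 were tested, 20 positive and 5 negative, with a median of 0.27 and calf medians of 0.73, 0.51, 0.02 and -0.14 in calves 21, 23, 24 and 25. Without calf 21 the counts were 16 and 9 and the median 0.10. None passed the adjusted threshold. At an unadjusted limma p under 0.05, 2 of 25 were higher and 1 lower on WP, beside 5.24% and 1.75% of all tested probes. FGFR3, a growth factor receptor, gave 1.18 ± 0.62 (0.42 under normexp and 0.57 under quantile scaling), and POSTN, also a fibroblast marker, gave 0.75 ± 0.50. SFN, the adaptor 14-3-3 sigma, counted in the basal list here, gave -0.38 ± 0.20 (SD, n = 4 for each) and was lower on WP in 4 of 4 calves. The other negative genes were CDH3 at -0.61, PERP at -0.10 and the keratin genes KRT14 at -0.49 and KRT5 at -0.02. The keratin gene KRT15 was positive at 0.18.

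Of 58 suprabasal and cornified genes 34 were tested, 6 positive and 28 negative, with a median of -0.39 and calf medians of -0.58, -0.39, -0.44 and 0.01. Under quantile scaling the counts were 4 and 30, and without calf 24 they were 10 and 24. None had an adjusted limma p under 0.05, and 5 of 34 had an unadjusted one as lower on WP, beside 1.75% of all tested probes. CALML5, a calcium-binding protein of differentiating keratinocytes, gave -1.07 ± 0.68. The protease inhibitors CST6 and SPINK5 gave -0.76 ± 0.47 and -0.94 ± 0.68 (SD, n = 4 for each), and these 3 genes were lower on WP in 4 of 4 calves. By row, 23 of these 34 genes were higher in row 2 and 11 lower, with a median of 0.20, against 0.03 for all tested probes. Of the basal layer genes 6 were higher and 19 lower, with a median of -0.22. At an unadjusted limma p under 0.05 for row, 6 suprabasal genes were higher in row 2 and 2 lower. For the basal list these counts were 2 and 8, and for the 10236 tested probes they were 747 and 573. No gene of either list passed the adjusted threshold for row. In calves 21, 23, 24 and 25 the row medians were 0.58, 0.39, -0.44 and 0.01 for the suprabasal list. For the basal list they were -0.73, -0.51, 0.02 and -0.14. The suprabasal list thus turned sign in calf 24, where the basal one was near 0, and the suprabasal one was near 0 in calf 25.

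**Figure D4:**
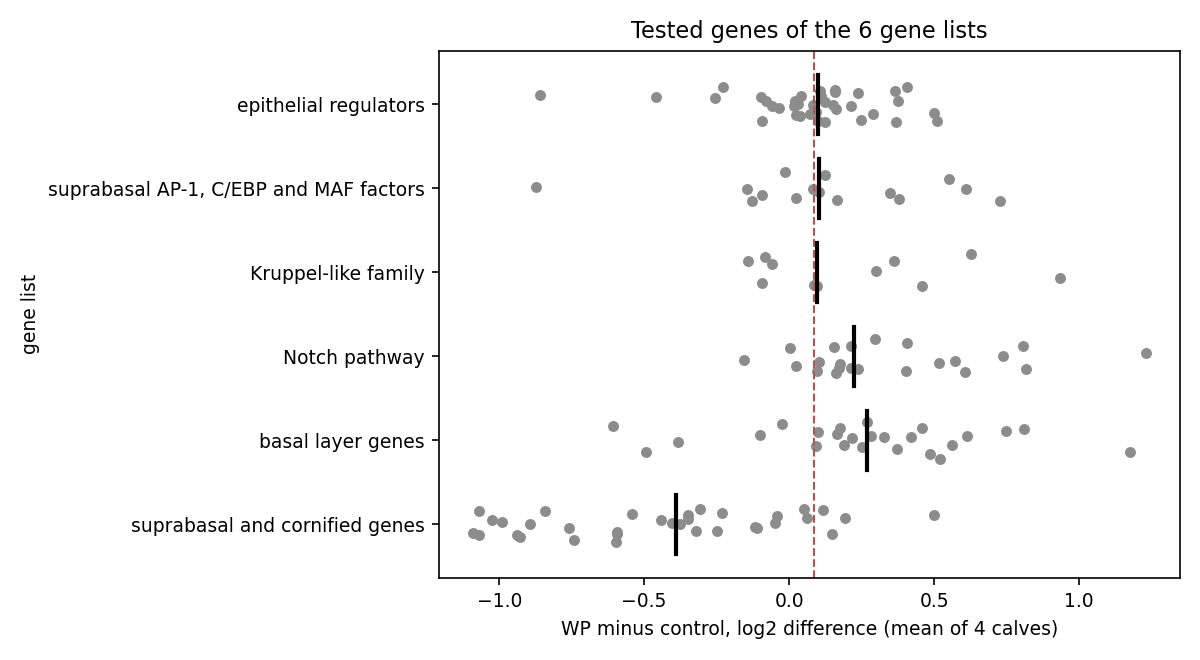
Diet difference, WP minus control (log2), of each tested gene in the 6 gene lists (points), with the median of each list (bar) and the median of all tested probes, 0.09 (dashed line). The suprabasal and cornified genes lie mostly below 0, and the Notch and basal layer genes mostly above.

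To describe how alike the factors were over the 8 arrays, each gene was centred on its own mean. The root mean square distance was then 0.14 between TP63 and GRHL2, 0.15 between TP63 and SOX2, and 0.16 between SOX2 and GRHL2. GRHL1 lay at 0.22 from GRHL3 and at 0.29 from EHF. Genes that vary little lie close to each other by this measure.

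For the 4 factors whose level spanned at least 1 log2, the nearest of 9890 genes were sought by the same distance over the 8 arrays. KLF4 was nearest to the kinase genes JAK1 (0.180) and YES1 (0.185). EHF was nearest to EPS8L1 (0.164), an actin regulator of the EPS8 family, and to PPIF (0.175), a mitochondrial prolyl isomerase. ELF3 was nearest to ALPL (0.265), an alkaline phosphatase, and to NFE2L3 (0.318), a CNC-family transcription factor, whose probes were well above background on 7 and 6 arrays. The dim OVOL1 was nearest to MAP3K3 (0.228) and PSMD3 (0.254), above background on 5 and 7 arrays.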

How the data were processed

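Cy3-labelled cRNA was made by linear amplification from 500 ng of total RNA, per the labels' protocols. The deposited scanner files hold spot intensity and background flags, with a processed signal already corrected for background by Agilent Feature Extraction (version 11.0.1.1 in the deposited headers, 9.5 per the submitters' processing notes). Other deposited columns used were flags and probe names. The value table deposited by the authors is on the log2 scale and equals, per array, log2 of the processed signal minus 1 constant (column medians -3.07 to -2.26). It was not centred by gene, its scale and direction were settled by this comparison, and it served as an alternative.

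From these files, log2 of the processed signal minus each array's 75th percentile was computed, without 536 control spots and 97 spots flagged as outliers by the scanner software (73 of them on the WP array of calf 24). No spot was saturated. Probes were tested if 4 or more of the 8 arrays had them well above background, with limma 3.58.1 in R 4.3.3 (two-sided, lmFit and eBayes), with a block for calf and Benjamini-Hochberg adjustment over all of them at 0.05. The pairing comes from the cross-over and the calf numbers in the labels: the deviations of a calf's 2 arrays correlated at 0.00840, 0.195, 0.0597 and 0.0471. The number of arrays limits the precision. For this comparison, simulated data of 10194 probes had 91.4% of the 4-fold changes called, 44.2% at 2-fold and 1.6% at 1.5-fold. Each run changed 200 probes, spread evenly over log2 changes of 0.585, 1, 2 and 3, with independent noise. The shares called depend on how many probes change and by how much, which is not known for these data. The tested members' mean differences were below 1.5-fold.

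Names follow the array design and RefSeq names (assembly ARS-UCD2.0). Probe positions are on UMD 3.1, and exons and UTRs were not analysed here. The members and lists were chosen with earlier results of these data known. Named genes are the 10 members, the 3 tested genes of smallest unadjusted p in each gene list, and the 2 nearest genes of each member spanning at least 1 log2. Also named are KRT15, the basal layer genes with a negative difference, and single cell type markers. Alternatives were normexp (offset 50), quantile and cyclic loess normalization, the deposited table, other filters, trend and robust eBayes, the fit without the block, slide row, naming and probe choice, and each calf left out. The slide row comparison and its alternatives, the score without OVOL1 and the alternatives for list genes were chosen after seeing the data.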

Additional observations from a re-analysis of the deposited data

Results flagged for a closer look

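Over 30 groups of 4 values, 3 held an array that stood apart from the others by Dixon's criterion at the 95% level, and chance gives about 1 in 20. SOX2 stood at 5.21 on the WP array of calf 24, below the other WP arrays at 5.53 to 5.56. KLF5 stood at -0.83 on the control array of calf 24, below the other control arrays at -0.64 to -0.61. GRHL1 stood at 3.03 on the WP array of calf 25, above the other WP arrays at 2.22 to 2.27.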

How the results depend on the processing

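No probe, and so no member, passed the adjusted threshold for diet under any alternative run. The count of probes with an unadjusted p under 0.05 for diet was 715 (536 higher and 179 lower on WP). It was 1413 with normexp, 464 within row 2, and 429 (without calf 24) to 935 (without calf 25) when a calf was left out. Without the replicate block it was 785. The split was 192 higher and 336 lower under quantile and 263 and 411 under cyclic loess normalization, against 536 and 179, and the cause was not tested. The diet differences of TP63, SOX2, KLF5, GRHL2, GRHL1, GRHL3, KLF4 and EHF kept their sign under every alternative run. ELF3 turned to 0.063 with normexp, and ranged from -0.99 to 0.23 when a calf was left out, with 0.09 without calf 21 and 0.23 without calf 23. AHR turned to -0.31 and KLF14 to -0.013 under quantile normalization, and SP1 to -0.020 within row 1. Basal minus suprabasal ranged from 0.13 (without calf 21) to 0.68 (without calf 25). For row, 0 probes passed the adjusted threshold, against 121 with normexp and 3 without the replicate block, and the 1320 with an unadjusted p under 0.05 became 709 to 1800 when a calf was left out. Naming by accession and averaging probes changed no member, since each has 1 probe. Precision is limited by 4 calves, and for ELF3 and OVOL1 by signals near background.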
